A study of Homo sapiens with 5 samples.

Results

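The genes described here encode the proteins that shorten the poly(A) tail of mRNAs, remove the cap and degrade the body of the transcript, together with the translational repressors and adaptors that gather with them in cytoplasmic processing bodies (P-bodies). A list of 45 gene symbols was looked up in a table of read counts for 18257 genes, and all 45 were found. Of these, 44 reached 1 CPM (a gene's reads scaled to the size of its library) in 2 or more of the 5 libraries and were tested; LSM2 was listed at 0 in every library. The list was not chosen by any value measured in these libraries, although results from the same libraries were known when it was drawn up.

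The libraries came from polyadenylated RNA of HEK293 T-Rex FLAG:DICER1 FLP-IN cells, a derivative of the human embryonic kidney line HEK293 that carries a FLAG-tagged DICER1. Cells were collected 18 h after transfection with siRNA against DICER1 (2 libraries, one for each of 2 siRNAs), with siRNA against DROSHA (2 libraries, one for each of 2 siRNAs) or after a mock transfection (1 library). No library received a non-targeting siRNA. In both comparisons with the mock, effects of siRNA transfection itself therefore cannot be told apart from those of the knockdown. Every group, the mock included, carries the same FLAG:DICER1 background, and the labels do not say whether the tagged gene was induced. The labels do not say that the libraries came from separate cultures, so the spread behind every p-value is that between different siRNAs against one target, and it may be partly technical.

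In animal cells most mRNAs decay from their tail. The PAN2-PAN3 pair and the CCR4-NOT complex trim the poly(A) tail, the LSM1-7 ring and PATL1 bind the shortened end, DCP2 removes the cap with the help of DCP1 and its activators, and XRN1 degrades the transcript from the 5′ end, while the exosome works from the 3′ end. DROSHA and DICER1 carry out successive cuts in the making of microRNAs, and an Argonaute protein loaded with a microRNA brings PAN2-PAN3 and CCR4-NOT to its target through the TNRC6 proteins. Many of the genes below thus act downstream of microRNAs. They were measured in cells with a lowered mRNA of an enzyme that makes microRNAs. No level of either enzyme's protein or of any microRNA is given here.

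The knockdowns were first checked on their targets. DICER1 was at 74.1 and 67.7 CPM with the DICER1 siRNAs against 243 CPM in the mock, leaving 29.2% of the mock level, and it was the only gene of 12234 tested that passed in that comparison (log2 fold change -1.78 ± 0.12 (SE), adjusted p = 0.0260, edgeR's quasi-likelihood test). DROSHA was at 41.2 and 41.9 CPM with the DROSHA siRNAs against 191 CPM in the mock, leaving 21.7%, and was likewise the only gene that passed (log2 fold change -2.20 ± 0.09 (SE), adjusted p = 0.000882, edgeR's quasi-likelihood test). DICER1 was at 282 and 333 CPM in the DROSHA siRNA libraries, both above the mock, and did not pass there (adjusted p = 0.978, edgeR's quasi-likelihood test). DROSHA was at 195 and 193 CPM in the DICER1 siRNA libraries. Libraries held 7620206 to 8736455 counted reads. The DROSHA siRNA 2 library stood apart: in a chi-square comparison of gene counts it differed from each other library by 7.36 to 9.50 per degree of freedom, where all other pairs gave 2.61 to 5.77 and counting noise alone gives about 1. All 7 HEK293 markers were above 1 CPM in the mock. PAX2 (4.40 CPM in the mock) was lower in every knockdown library, and KRT18 (50.9 CPM in the mock) was higher in every one. The summed level of the 7 markers, to which VIM gave 422 CPM in the mock, was 773 and 787 CPM in the DICER1 siRNA libraries, 710 and 672 CPM in the DROSHA siRNA libraries and 701 CPM in the mock. Of 10 markers of blood, endothelium, liver and fibroblasts, 9 were in the table; PTPRC, COL1A2 and DCN were at 0 in every library, COL1A1 was the only one above 1 CPM in the mock, and their summed level was 7.72 and 7.58, 6.31 and 5.86, and 7.14 CPM in the same order. In a bulk measurement fewer expressing cells and less RNA per cell cannot be told apart.

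The mRNA decay genes as a group moved little after either knockdown. None of the 44 passed the test in any comparison at an adjusted p below 0.05 (edgeR's quasi-likelihood test, Benjamini-Hochberg adjustment over 12234 genes); among all genes tested, 0.00817% passed for DICER1 siRNA against mock, 0.00817% for DROSHA siRNA against mock and 0.0163% for DICER1 siRNA against DROSHA siRNA. At an unadjusted p below 0.05, XRN2 passed with DICER1 siRNA against mock (1 of 44, 2.27%, against 5.46% of all genes) and again with DICER1 siRNA against DROSHA siRNA (1 of 44, against 8.34%), and no member passed with DROSHA siRNA against mock (0 of 44, against 3.69%). DESeq2 and edgeR's likelihood ratio test also called none of the 44 in any of the 3 comparisons. So few of all genes passed that a count of 0 of 44 shows nothing particular to the members.

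Most fold changes of the members were small. With DICER1 siRNA against mock, 38 of 44 members (86.4%) had a log2 fold change within 0.2 of 0, compared with 71.1% of all genes tested. With DROSHA siRNA against mock, 40 of 44 (90.9%) were within 0.2, compared with 72.5%. With DICER1 siRNA against DROSHA siRNA, 41 of 44 (93.2%) were, compared with 73% of all genes. The median log2 fold change of the members was 0.014 for DICER1 siRNA against mock, -0.027 for DROSHA siRNA against mock and 0.046 for DICER1 siRNA against DROSHA siRNA, beside 0.00053, -0.0049 and 0.0042 over all genes tested. The contrast was smaller beside genes above a floor on level: the median absolute log2 fold change was 0.060, 0.058 and 0.078 for the members in these 3 comparisons, 0.115, 0.111 and 0.107 over all genes, and 0.090, 0.087 and 0.087 over the 8219 genes with a geometric mean above 20 CPM.

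The levels of most members were close to one another across the 5 libraries. The highest library was a median of 1.16 times the lowest over the members, against 1.25 times over all genes tested and 1.19 times over the 8219 genes above 20 CPM. That floor was chosen after the values were seen, and the geometric mean over the 5 libraries of every tested member clears it, DCP1B by little. Only CNOT6 and DCP2 spanned more than 1.5-fold (2 of 44, 4.55%), compared with 21.4% of all genes and 8.25% of those above 20 CPM. The 95% interval of the fold change lay within 1.5-fold of no change for 41 of 44 members with DICER1 siRNA against mock, the others being CNOT6, CNOT7 and DCP2. It did so for 40 of 44 with DROSHA siRNA against mock, where EIF4E2 joined these 3 genes, and for 42 of 44 with DICER1 siRNA against DROSHA siRNA, all but CNOT6 and DCP2. Smaller changes than 1.5-fold remain within these intervals. The share of all genes with such intervals was not counted, so these counts show nothing particular to the members.

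**Figure D1:**
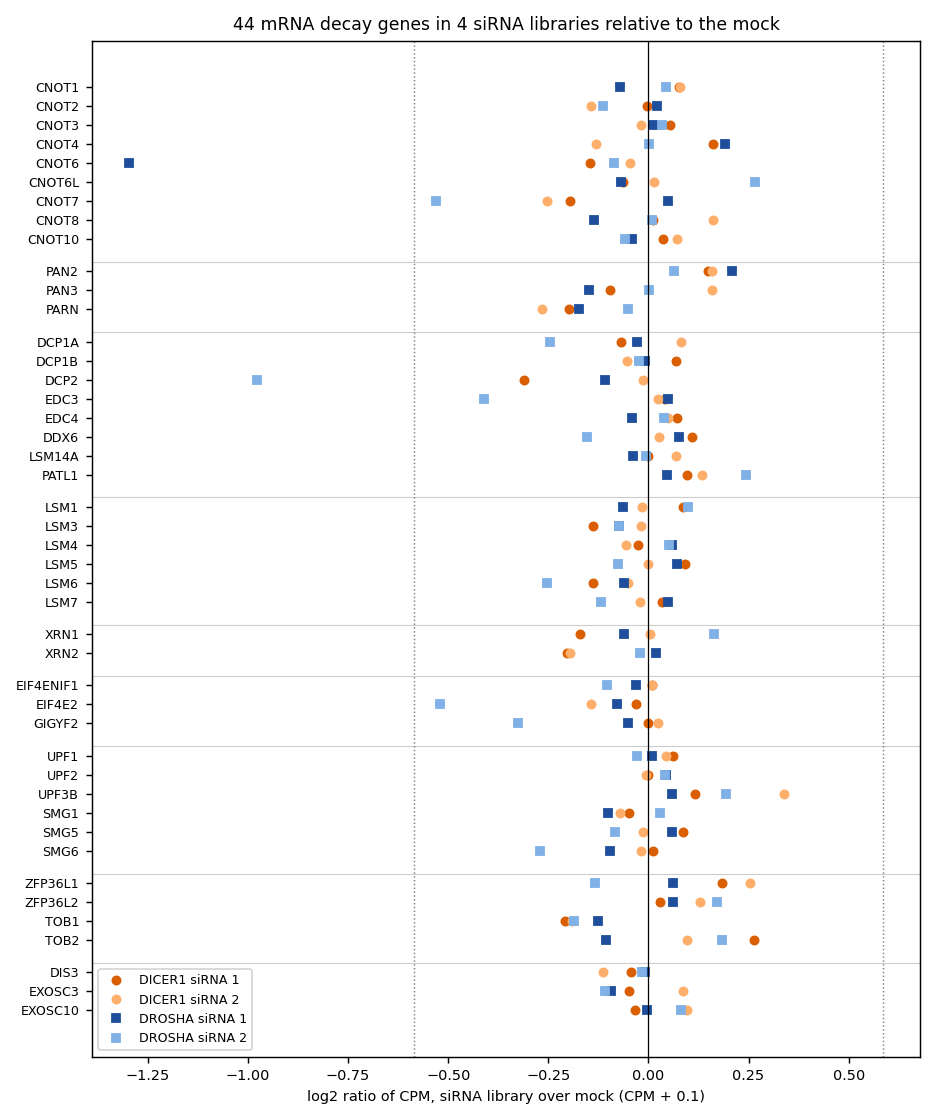
Log2 ratio of CPM in each siRNA library over the mock (CPM + 0.1, x axis) for the 44 tested mRNA decay genes, ordered by role from CCR4-NOT at the top to the exosome at the bottom; circles are the 2 DICER1 siRNA libraries, squares the 2 DROSHA siRNA libraries, and dotted lines mark 1.5-fold. Of all the points, 1 for CNOT6 in the DROSHA siRNA 1 library at -1.30 and 1 for DCP2 in the DROSHA siRNA 2 library at -0.98 lie beyond a dotted line.

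The shares of members whose libraries did not overlap between groups were below those of all genes in 4 of 6 counts and above them in the others. Both DICER1 siRNA libraries were above the mock for 14 of 44 members (31.8%, against 36.7% of all genes) and below it for 14 (31.8%, against 36.4%). Both DROSHA siRNA libraries were above the mock for 8 members (18.2%, against 31.5%) and below it for 16 (36.4%, against 32.5%). Between the knockdowns, both DICER1 siRNA libraries were above both DROSHA siRNA libraries for 11 members (25%, against 20.9%) and below them for 6 (13.6%, against 20%). For 4 members (9.09%, against 9.51%) the DICER1 siRNA libraries were both on one side of the mock and the DROSHA siRNA libraries both on the other. Both comparisons with the mock share 1 mock library.

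Each library was then set against the mock on its own. No member was more than 1.5-fold from the mock in the DICER1 siRNA 1 library (background 4.68% of genes) or the DICER1 siRNA 2 library (6.14%). In the DROSHA siRNA 1 library 1 of 44 was, CNOT6 (2.27%, against 4.25% of all genes in either direction, 2.41% in the lower direction and 0.572% lower among genes above 20 CPM). In the DROSHA siRNA 2 library 1 of 44 was, DCP2 (2.27%, against 7.32% in either direction, 5.28% lower and 2.41% lower above 20 CPM). Each count is a single gene, near or below the background over all genes, and above 20 CPM it exceeds the background in the DROSHA siRNA 1 library.

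CCR4-NOT is the main cytoplasmic deadenylase complex, and 9 of its genes were measured. CNOT1, its scaffold, was at 842 and 843 CPM in the DICER1 siRNA libraries, 760 and 824 CPM in the DROSHA siRNA libraries and 798 CPM in the mock. Both DICER1 siRNA libraries were above the mock and above both DROSHA siRNA libraries, which lay on either side of the mock. The difference between the knockdowns was 0.09 ± 0.05 (SE) on the log2 scale and did not pass (adjusted p = 0.686, edgeR's quasi-likelihood test). Across the 9 genes the log2 fold changes ran from -0.22 to 0.09 with DICER1 siRNA against mock and from -0.57 to 0.11 with DROSHA siRNA against mock.

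The widest spread of any member was that of CNOT6, one of the catalytic subunits of the exonuclease-endonuclease-phosphatase family. It was at 164 and 176 CPM in the DICER1 siRNA libraries, 73.7 and 171 CPM in the DROSHA siRNA libraries, and 181 CPM in the mock. The DROSHA siRNA 1 library stood alone at 40.7% of the mock, a log2 ratio of -1.30, while the other DROSHA siRNA library lay within the range of the DICER1 siRNA libraries. The counts behind these levels were 642 reads in the DROSHA siRNA 1 library and 1338 in the DROSHA siRNA 2 library, against 1523 in the mock. Of 12234 genes, CNOT6 had the 21st lowest ratio of the DROSHA siRNA 1 library to the mock.

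Because its 2 DROSHA siRNA libraries differed by 1.21 on the log2 scale, the fitted fold change of CNOT6 with DROSHA siRNA against mock was -0.57 ± 0.40 (SE) and did not pass (adjusted p = 0.978, edgeR's quasi-likelihood test). With the DROSHA siRNA 2 library left out, it was -1.30. With the DROSHA siRNA 1 library left out instead, it was -0.089. Such a fit leaves 1 DROSHA siRNA library and takes its spread from the DICER1 siRNA pair, so only the log2 fold change is given. Its paralog CNOT6L, measured at a lower level, was at 46.7 and 49.3 CPM in the DICER1 siRNA libraries, 46.6 and 58.8 CPM in the DROSHA siRNA libraries and 48.9 CPM in the mock, and did not share the low value of CNOT6 in the DROSHA siRNA 1 library. The sources used here do not say how reads common to these paralogs were assigned.

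CNOT7, the other type of catalytic subunit, of the DEDD family, was low in a different library. It was at 137 and 132 CPM in the DICER1 siRNA libraries, 163 and 109 CPM in the DROSHA siRNA libraries and 157 CPM in the mock. The DROSHA siRNA 2 library was lowest, at 69.2% of the mock, both DICER1 siRNA libraries were also below the mock, and the DROSHA siRNA 1 library was above it. The log2 fold changes were -0.22 ± 0.21 with DICER1 siRNA and -0.21 ± 0.21 with DROSHA siRNA against mock (SE), neither of which passed. Without the DROSHA siRNA 1 library, CNOT7 was at -0.53 with DROSHA siRNA against mock, and without the DROSHA siRNA 2 library its sign turned, to 0.048. Each of these fits leaves 1 DROSHA siRNA library.

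CNOT8, the paralog of CNOT7, was at 92.9 and 103 CPM in the DICER1 siRNA libraries, 83.9 and 92.8 CPM in the DROSHA siRNA libraries and 92.2 CPM in the mock. The structural subunits CNOT2, CNOT3 and CNOT10 spanned at most 1.12-fold over the 5 libraries. CNOT4, a ubiquitin ligase associated with the complex, had the lowest level per kb of the tested members in the mock. It was at 34.3 and 28.0 CPM in the DICER1 siRNA libraries, 35.0 and 30.7 CPM in the DROSHA siRNA libraries and 30.7 CPM in the mock. The DICER1 siRNA libraries lay on either side of the mock. The DROSHA siRNA 1 library was at 114% of the mock, and the DROSHA siRNA 2 library was level with it.

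The other deadenylases moved in both directions without passing. PAN2, the nuclease of the PAN2-PAN3 complex, was at 83.9 and 84.5 CPM in the DICER1 siRNA libraries, 87.5 and 79.0 CPM in the DROSHA siRNA libraries and 75.6 CPM in the mock, so that all 4 knockdown libraries were above the mock. Its log2 fold change was 0.15 ± 0.11 (SE) with DICER1 siRNA and 0.14 ± 0.11 (SE) with DROSHA siRNA. PARN, a cap-binding poly(A) ribonuclease, was at 87.7 and 83.7 CPM in the DICER1 siRNA libraries, 89.3 and 97.3 CPM in the DROSHA siRNA libraries and 101 CPM in the mock, with all 4 knockdown libraries below the mock and the DICER1 siRNA libraries lowest. Its log2 fold change with DICER1 siRNA against mock, -0.23 ± 0.11 (SE), was the lowest of the members in that comparison and did not pass (adjusted p = 0.869, edgeR's quasi-likelihood test). Both readings rest on the same mock library.

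DCP2, the enzyme that hydrolyses the cap, was the second gene with a wide spread. It was at 175 and 215 CPM in the DICER1 siRNA libraries, 201 and 110 CPM in the DROSHA siRNA libraries and 217 CPM in the mock. The DROSHA siRNA 2 library was lowest, at 50.8% of the mock (865 reads against 1826 in the mock), and the DICER1 siRNA 1 library was also below the other 3. Its log2 fold change with DROSHA siRNA against mock was -0.48 ± 0.31 (SE) and did not pass (adjusted p = 0.978, edgeR's quasi-likelihood test). Without the DROSHA siRNA 1 library it was -0.98, and DICER1 siRNA against DROSHA siRNA was then 0.82. Without the DROSHA siRNA 2 library, DCP2 was at -0.11 with DROSHA siRNA against mock. Each of these fits leaves 1 DROSHA siRNA library.

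The partners of DCP2 did not follow it together. EDC3, an enhancer of decapping, was named after its values were seen: it was at 173 and 171 CPM in the DICER1 siRNA libraries, 174 and 127 CPM in the DROSHA siRNA libraries and 168 CPM in the mock, with the DROSHA siRNA 2 library alone low, at 75.2% of the mock. The log2 fold change of EDC3 with DROSHA siRNA against mock was -0.16 ± 0.17 (SE), and 0.049 without that library. DCP1A, the cofactor of DCP2, was at 64.9 and 72.1 CPM in the DICER1 siRNA libraries, 66.8 and 57.5 CPM in the DROSHA siRNA libraries and 68.1 CPM in the mock, lowest again in the DROSHA siRNA 2 library. DDX6, the RNA helicase that links deadenylation to decapping and is needed for P-bodies, was at 128 and 121 CPM in the DICER1 siRNA libraries, 126 and 107 CPM in the DROSHA siRNA libraries and 119 CPM in the mock, with both DICER1 siRNA libraries above the mock and the DROSHA siRNA libraries on either side of it. DCP1B, EDC4, LSM14A and PATL1 had log2 fold changes from 0.0077 to 0.12 with DICER1 siRNA and from -0.022 to 0.15 with DROSHA siRNA against mock.

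**Figure D2:**
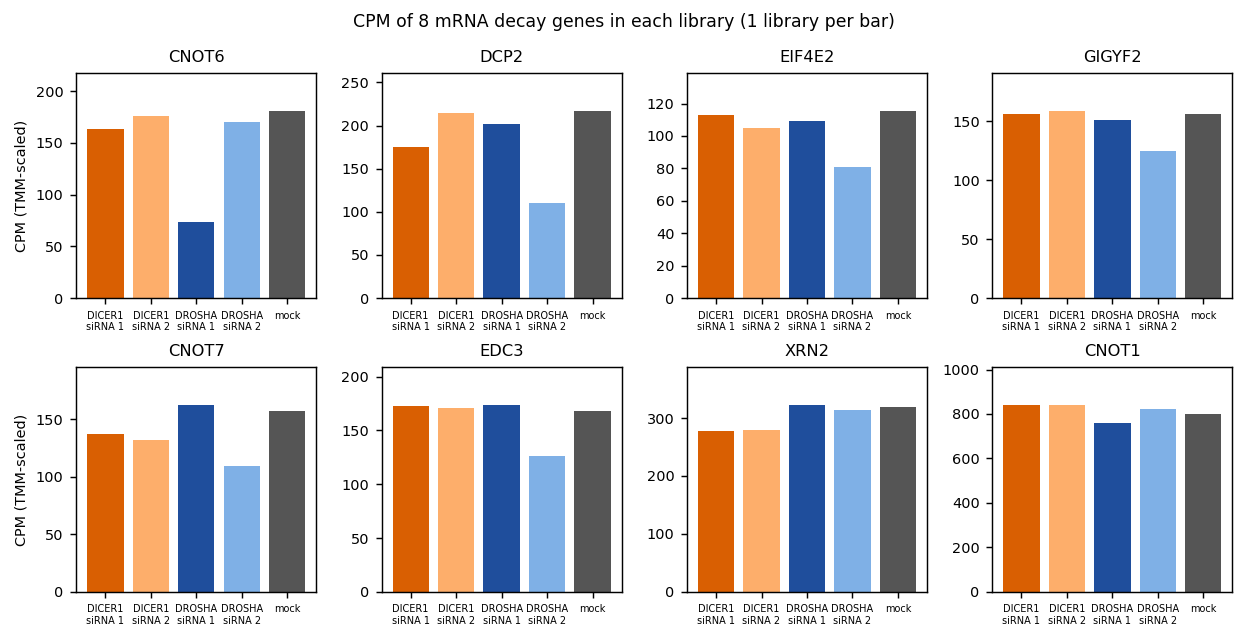
CPM scaled by the trimmed mean of M-values (TMM) for 8 mRNA decay genes (y axis, linear from 0), 1 bar per library, with the DICER1 siRNA libraries left, the DROSHA siRNA libraries next and the mock right. CNOT6 is low in the DROSHA siRNA 1 library (73.7 CPM against 181 in the mock), DCP2, EIF4E2, GIGYF2, CNOT7 and EDC3 are lowest in the DROSHA siRNA 2 library, and XRN2 is lower in both DICER1 siRNA libraries (277 and 279 CPM) than in the other 3.

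The LSM1-7 ring binds the 3′ end of deadenylated mRNAs and promotes decapping. Its 6 measured subunits spanned at most 1.19-fold over the 5 libraries, the widest being LSM6. LSM1, the subunit that distinguishes the cytoplasmic ring from the nuclear one, was at 28.1 and 26.2 CPM in the DICER1 siRNA libraries, 25.4 and 28.4 CPM in the DROSHA siRNA libraries and 26.5 CPM in the mock, where the groups overlapped. LSM4 was at 297 and 291 CPM in the DICER1 siRNA libraries, 315 and 314 CPM in the DROSHA siRNA libraries and 303 CPM in the mock, and the DROSHA siRNA libraries were both higher than the others. The DICER1 against DROSHA difference of LSM4, -0.10 ± 0.06 (SE) on the log2 scale, did not pass (adjusted p = 0.686, edgeR's quasi-likelihood test).

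LSM2 could not be read from this table. Of the 61 genes in the table within 500000 bp of LSM2 (chromosome 6, GRCh38), 47 were at 0 in all 5 libraries, 77.0%, compared with 2602 of all 18257 genes, 14.3%. The cofactor SKIV2L of the cytoplasmic exosome and DOM3Z, an enzyme that removes unusual caps, also lie in that stretch and were listed at 0. No level of LSM2 is given for these cells.

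Among the 5′-to-3′ exonucleases, XRN2 gave the smallest p of any member. XRN2, the nuclear enzyme that degrades RNA downstream of the cleavage site of polyadenylated transcripts, was at 277 and 279 CPM in the DICER1 siRNA libraries, 323 and 314 CPM in the DROSHA siRNA libraries and 319 CPM in the mock. Both DICER1 siRNA libraries were below all of the other 3, and the DROSHA siRNA libraries lay on either side of the mock. The log2 fold change was -0.20 ± 0.07 (SE) with DICER1 siRNA against mock (adjusted p = 0.865, edgeR's quasi-likelihood test) and -0.20 ± 0.06 (SE) with DICER1 siRNA against DROSHA siRNA (adjusted p = 0.504, edgeR's quasi-likelihood test). Neither passed after adjustment. XRN1, the cytoplasmic enzyme that degrades decapped mRNA, was at 59.2 and 66.8 CPM in the DICER1 siRNA libraries, 63.8 and 74.6 CPM in the DROSHA siRNA libraries and 66.6 CPM in the mock, and the groups overlapped.

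Of the translational repressors that bind the cap or its binding protein, 3 of 3 were lower in both DROSHA siRNA libraries than in the mock, as were 32.5% of all genes tested. Every role group was counted in all 3 comparisons, and no other had all of its tested members on one side. Whether agreement of 3 genes is unusual among so many counts was not tested. EIF4E2, the cap-binding protein 4EHP, was at 113 and 105 CPM in the DICER1 siRNA libraries, 110 and 80.6 CPM in the DROSHA siRNA libraries and 116 CPM in the mock. GIGYF2, its partner, was at 156 and 159 CPM in the DICER1 siRNA libraries, 151 and 125 CPM in the DROSHA siRNA libraries and 157 CPM in the mock. In both genes the DROSHA siRNA 2 library alone was low, at 69.7% of the mock for EIF4E2 and 79.8% for GIGYF2.

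The log2 fold changes with DROSHA siRNA against mock were -0.28 ± 0.18 for EIF4E2 and -0.18 ± 0.12 for GIGYF2 (SE), and neither passed (adjusted p = 0.978 for both, edgeR's quasi-likelihood test). Without the DROSHA siRNA 2 library they were -0.078 for EIF4E2 and -0.051 for GIGYF2. Without the DROSHA siRNA 1 library, EIF4E2 was at -0.52 with DROSHA siRNA against mock and at 0.43 with DICER1 siRNA against DROSHA siRNA. Each of these fits leaves 1 DROSHA siRNA library. EIF4ENIF1, the eIF4E transporter 4E-T that joins repressed mRNAs to DDX6, was at 43.5 and 43.4 CPM in the DICER1 siRNA libraries, 42.2 and 40.2 CPM in the DROSHA siRNA libraries and 43.2 CPM in the mock, a log2 fold change of -0.067 ± 0.12 (SE) with DROSHA siRNA against mock.

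**Figure D3:**
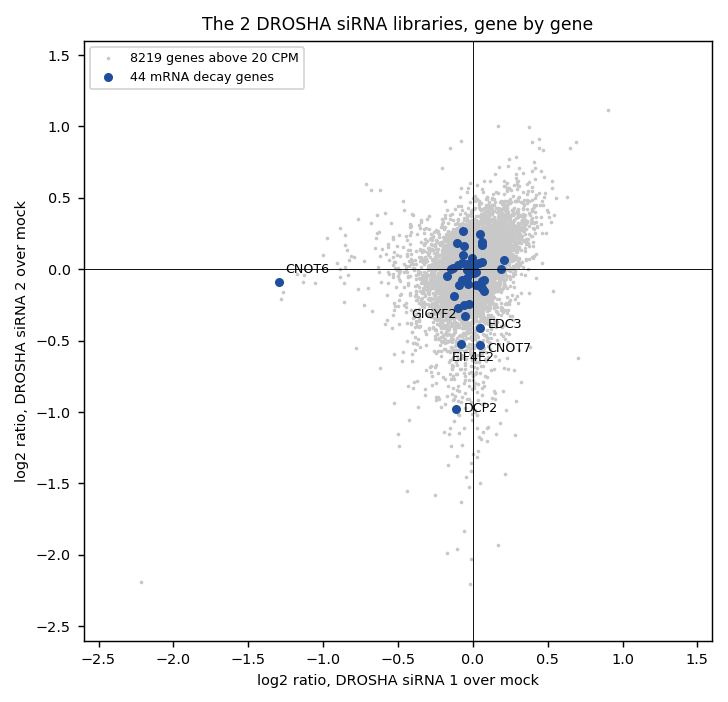
Log2 ratio to the mock in the DROSHA siRNA 1 library (x axis) and in the DROSHA siRNA 2 library (y axis) for 8219 genes above 20 CPM (grey) and the 44 mRNA decay genes (blue); both axes share the same mock library. CNOT6 is displaced mainly along the x axis (-1.30), and DCP2 (-0.98), CNOT7, EIF4E2, EDC3 and GIGYF2 mainly along the y axis.

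The nonsense-mediated decay genes act on transcripts with a premature stop codon. UPF1, the central helicase, was at 219 and 216 CPM in the DICER1 siRNA libraries, 211 and 206 CPM in the DROSHA siRNA libraries and 210 CPM in the mock, and both DICER1 siRNA libraries were above the others. UPF3B, which joins UPF1 and UPF2 to the exon junction complex, was at 62.3 and 72.7 CPM in the DICER1 siRNA libraries, 59.8 and 65.7 CPM in the DROSHA siRNA libraries and 57.4 CPM in the mock. All 4 knockdown libraries were above the mock, and the log2 fold change with DICER1 siRNA, 0.23 ± 0.14 (SE), was the highest of the members in that comparison and did not pass.

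SMG6, the endonuclease of the pathway, was at 83.8 and 82.1 CPM in the DICER1 siRNA libraries, 77.7 and 68.8 CPM in the DROSHA siRNA libraries and 83.1 CPM in the mock. Both DROSHA siRNA libraries were below the other 3, with a log2 difference of 0.18 ± 0.09 (SE) between DICER1 siRNA and DROSHA siRNA that did not pass. UPF2, SMG1 and SMG5 had log2 fold changes from -0.060 to 0.037 with DICER1 siRNA and from -0.035 to 0.043 with DROSHA siRNA against mock. SMG1 has pseudogene copies of its sequence in the genome, and the sources used here do not say how their reads were assigned.

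Adaptors that recruit the deadenylases to chosen mRNAs varied in both directions. ZFP36L1, which binds AU-rich elements, was at 37.0 and 38.9 CPM in the DICER1 siRNA libraries, 34.0 and 29.7 CPM in the DROSHA siRNA libraries and 32.6 CPM in the mock. Both DICER1 siRNA libraries were above the other 3, and the log2 fold change was 0.22 ± 0.14 (SE) against mock and 0.25 ± 0.11 (SE) against DROSHA siRNA, where it was not past the threshold (adjusted p = 0.614, edgeR's quasi-likelihood test). TOB1, an anti-proliferative protein that binds CNOT7, was at 42.8 and 43.3 CPM in the DICER1 siRNA libraries, 45.3 and 43.5 CPM in the DROSHA siRNA libraries and 49.5 CPM in the mock, so that all 4 knockdown libraries were below the mock. ZFP36L2 and TOB2 had log2 fold changes of 0.080 and 0.18 with DICER1 siRNA and 0.12 and 0.045 with DROSHA siRNA against mock, and none of the 4 adaptors passed.

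The exosome degrades RNA from the 3′ end. DIS3, its main catalytic subunit, was at 199 and 189 CPM in the DICER1 siRNA libraries, 203 and 202 CPM in the DROSHA siRNA libraries and 205 CPM in the mock, with the DICER1 siRNA libraries lowest. EXOSC3, a subunit of its cap, and EXOSC10, its nuclear nuclease, spanned at most 1.15-fold over the 5 libraries.

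Since CNOT6 and DCP2 were each low with only one of the DROSHA siRNAs, the 3′ UTRs of the members were scanned for short sequences that mark genes low in a single library. For each library, the 7-base sequences held by at least 200 non-member genes were ranked (14362 sequences, transcript strand, GENCODE 29 on GRCh38). A holder had the sequence in its longest annotated 3′ UTR. The mean log2 ratio to the mock of holders was compared with that of the other non-member genes (12027 genes in all). Ratios were adjusted for UTR length, GC content and expression. The rank followed this difference divided by its standard error, which favours common sequences, so the leading sequence need not show the largest difference. The leading sequence was AATCTAA in both DICER1 siRNA libraries, ATAGAAT in the DROSHA siRNA 1 library and GTGACTT in the DROSHA siRNA 2 library. The non-member shares given below come from the genes and ratios that picked each 7-mer, without the adjustment. Lower levels in the non-member holders were thus the basis of the choice and do not test it. The sequences of the siRNAs are not used here, and any match of these 7-mers to them was not tested.

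The sites in the members that were low, and in members with the same 7-mer that were not, are printed below with 10 bases on each side; the 7-mer is in capitals and letters run 5′ to 3′ on the transcript strand. CNOT6 is set beside its paralog CNOT6L because both hold ATAGAAT, and the 6 members with GTGACTT are all shown (DCP2 holds it at 2 places).
CNOT6, chr5:180574471-180574477, + strand, GRCh38: cttctacccaATAGAATattttcatgc
CNOT6L, chr4:77719641-77719647, - strand, GRCh38, the nearest to the stop codon of 3 sites: taccttgaaaATAGAATgtggtatgtt
DCP2, chr5:113015116-113015122, + strand, GRCh38: tttgaatcctGTGACTTttgcttttta
DCP2, chr5:113015707-113015713, + strand, GRCh38: tgtgtgtgatGTGACTTaactatgcag
EIF4E2, chr2:232581146-232581152, + strand, GRCh38: aacggaaaacGTGACTTtgtaatagac
GIGYF2, chr2:232857544-232857550, + strand, GRCh38: tcgttagataGTGACTTctgagcaagc
DCP1A, chr3:53285779-53285785, - strand, GRCh38: agggagccacGTGACTTccataaagtg
CNOT4, chr7:135387219-135387225, - strand, GRCh38: ctatctagaaGTGACTTtaagacatta
SMG1, chr16:18806899-18806905, - strand, GRCh38: attctacaagGTGACTTgccatttgaa

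In the DROSHA siRNA 2 library, the 6 members with GTGACTT (13.6% of 44, against 15.6% of the non-member genes) had a median log2 ratio to the mock of -0.28, and the 38 without it had a median of -0.023. DCP2 was at -0.98, EIF4E2 at -0.52, GIGYF2 at -0.32 and DCP1A at -0.24, while CNOT4 at 0.0019 and SMG1 at 0.030 held the 7-mer and were level with the mock. CNOT7 (-0.53), EDC3 (-0.41), SMG6 (-0.27) and LSM6 (-0.25) were low in this library and did not hold GTGACTT. CNOT7 and LSM6 did hold the 7-mer ranked 2 in this library, which overlaps the leading one. Of the other members without GTGACTT, ZFP36L1 (-0.13), CNOT6L (0.27), TOB2 (0.18) and ZFP36L2 (0.17) also held that 7-mer. The 3′ UTRs of the 6 holders of GTGACTT ran from 2643 (CNOT4) to 7486 bases (DCP2), against a median of 1799 over the members. DCP2 also held the leading 7-mer of each other library, and its low value had prompted the scan together with that of CNOT6. The part of UTR length in the holders' median was not tested. Among the non-member genes, on which the 7-mer was chosen, 11.5% of the 1877 holders and 4.14% of the 10150 others were more than 1.5-fold below the mock in this library.

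In the DROSHA siRNA 1 library, 7 members held ATAGAAT (15.9% of 44, against 15.6% of non-member genes), and CNOT6 at -1.30 was the only one of them far from the mock. CNOT6L, with 3 sites, was at -0.068 and DCP2, with 2, at -0.11; the others were LSM3 (-0.073), CNOT7 (0.048), ZFP36L1 (0.060) and CNOT4 (0.19). The median of the 7 holders was -0.068, beside -0.028 for the 37 members without the sequence. Among the non-member genes, on which the 7-mer was chosen, 4.65% of holders and 2.0% of the others were more than 1.5-fold below the mock.

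In the DICER1 siRNA libraries the leading sequence was AATCTAA. It was held by 10 of 44 members (22.7%, against 13.1% of non-member genes), among them PARN, whose site is shown because PARN had the lowest fitted log2 fold change of the members with DICER1 siRNA against mock.
PARN, chr16:14436527-14436533, - strand, GRCh38: tcccctttttAATCTAActgcctgttg
The holders' median log2 ratio was -0.056 in the DICER1 siRNA 1 library and -0.033 in the DICER1 siRNA 2 library, beside 0.021 and 0.016 for the 34 members without it. PARN was at -0.20 and -0.27. DCP2, another holder, was the lowest member in the DICER1 siRNA 1 library at -0.31 and was at -0.014 in the DICER1 siRNA 2 library. The holders ZFP36L1 (0.18 and 0.25) and DDX6 (0.11 and 0.025) were above the mock in both libraries. CNOT6L (-0.065 and 0.013) lay on either side of it, and CNOT7, LSM6, UPF2, SMG1 and DIS3 were below it in both. XRN2, at -0.20 in both libraries, did not hold the sequence. Among the non-member genes, 3.35% of holders and 2.04% of the others were more than 1.5-fold below the mock in the DICER1 siRNA 1 library, and 8.35% against 2.34% in the DICER1 siRNA 2 library. The median 3′ UTR length was 1799 bases for the members and 1429 bases for the non-member genes, and its part in the shares of holders was not tested.

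**Figure D4:**
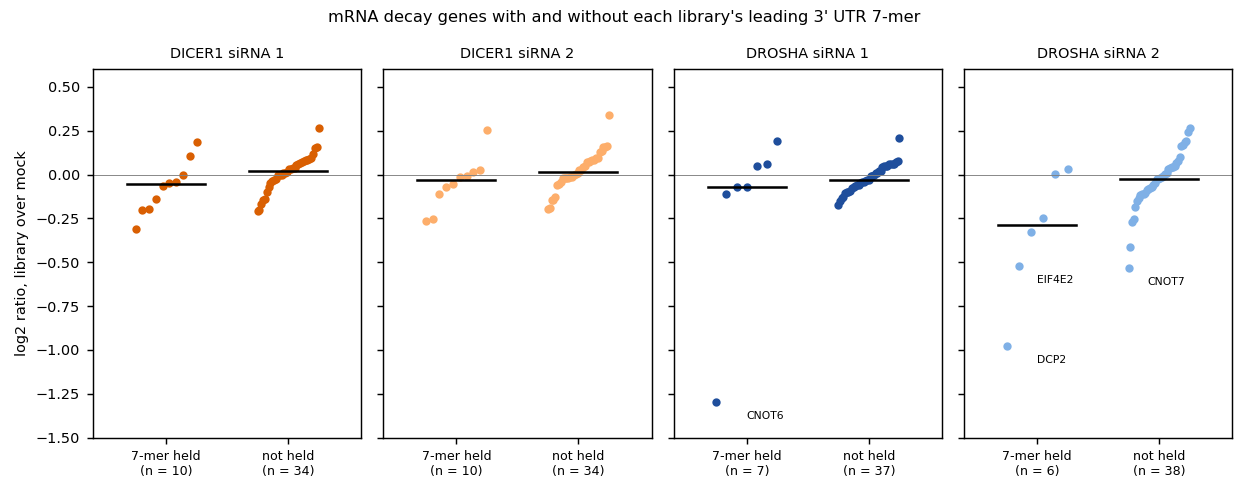
Log2 ratio of each siRNA library to the mock (y axis) for the mRNA decay genes whose longest annotated 3′ UTR holds that library's leading 7-mer (left column of each panel) and for those without it (right column); each point is a gene, points are spread sideways in order of value, and black lines are medians. The medians are -0.28 for the 6 holders and -0.023 for the 38 others in the DROSHA siRNA 2 library, and the columns overlap in all 4 panels.

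The transcript levels of the members were compared per kb of merged exon length (GENCODE 29). In the mock, LSM4 was the highest at 159 CPM per kb, followed by LSM7 (131), LSM14A (118), XRN2 (92.9) and CNOT1 (91.2). The lowest of the tested members were CNOT4 (4.55 CPM per kb), DCP1B (4.72), CNOT6L (5.44), XRN1 (6.16) and ZFP36L1 (6.58). The members' median was 22.1 CPM per kb in the mock, against 9.73 over the 12174 tested genes with a length. The nuclear exonuclease XRN2 was thus far above its cytoplasmic relative XRN1, and the deadenylase scaffold CNOT1 above each catalytic subunit, in every one of the 5 libraries.

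**Figure D5:**
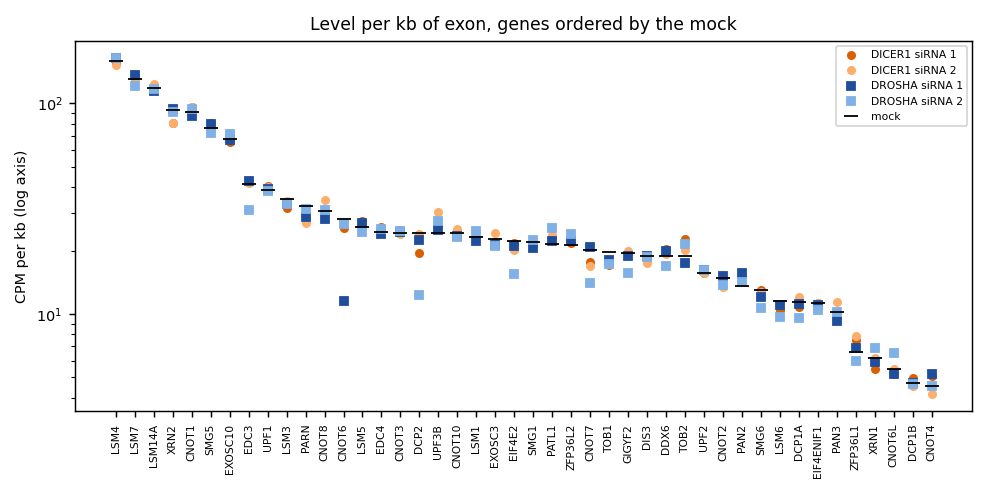
CPM per kb of merged exon (log axis) of the 44 tested mRNA decay genes, ordered by their level in the mock; circles are DICER1 siRNA libraries, squares DROSHA siRNA libraries and dashes the mock. Levels run from 159 (LSM4) to 4.55 CPM per kb (CNOT4) in the mock, and CNOT6 and DCP2 each have 1 square well below their other points.

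Other genes of mRNA decay, a list of 70 drawn up beside the members, were counted in the same way. Of these, 68 were in the table and 64 were tested, and none passed in any of the 3 comparisons (edgeR's quasi-likelihood test). At an unadjusted p below 0.05, 7 of 64 passed with DICER1 siRNA against mock (10.9%, against 5.46% of all genes; 4 higher, 3 lower). With DROSHA siRNA against mock 3 passed (4.69%, against 3.69%; 2 higher, 1 lower), and with DICER1 siRNA against DROSHA siRNA 6 did (9.38%, against 8.34%; 1 higher, 5 lower). Their median log2 fold changes were -0.013, 0.0065 and -0.0038 in the same order.

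The smallest p-values of that list with DICER1 siRNA against mock belonged to CPEB1, MPHOSPH6 and PAPD5. CPEB1, which binds the cytoplasmic polyadenylation element, was at 9.42 and 8.66 CPM in the DICER1 siRNA libraries, 7.003 and 6.50 CPM in the DROSHA siRNA libraries and 4.64 CPM in the mock, the DICER1 siRNA libraries being the highest (0.96 ± 0.23 (SE) against mock, adjusted p = 0.865, edgeR's quasi-likelihood test). MPHOSPH6, an exosome-associated protein, was at 32.5 and 27.9 CPM in the DICER1 siRNA libraries, 41.4 and 45.9 CPM in the DROSHA siRNA libraries and 41.0 CPM in the mock. PAPD5, a non-canonical poly(A) polymerase, was at 45.3 and 49.1 CPM in the DICER1 siRNA libraries, 59.0 and 64.9 CPM in the DROSHA siRNA libraries and 60.7 CPM in the mock.

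MPHOSPH6 and PAPD5 were below all 3 other libraries in both DICER1 siRNA libraries, with log2 differences of -0.53 ± 0.12 and -0.39 ± 0.10 (SE) between DICER1 siRNA and DROSHA siRNA, and RC3H2, a decay factor that binds stem-loops, was next in that comparison at -0.39 ± 0.13 (SE). With DROSHA siRNA against mock the smallest were GIGYF1 (0.36 ± 0.12), PABPC1 (0.17 ± 0.07), the cytoplasmic poly(A)-binding protein, and HNRNPD (-0.15 ± 0.06), which binds AU-rich elements. GIGYF1 and PABPC1 were above the mock in all 4 knockdown libraries, and HNRNPD was below it in all 4. None of these 7 passed after adjustment.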

How the data were processed

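RNA-seq read counts per gene symbol were deposited by the authors as 1 table for 5 libraries, with no normalization; the submitters' processing notes name CASAVA 1.8.2, STAR, HTSeq, edgeR and hg19. The strand setting, the annotation release and the handling of reads shared between copies are not given in the sources used here. No column was left unused.

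A gene was kept where 2 or more of the 5 libraries reached 1 CPM, which left 12234 genes and 99.93% of reads. Counts were scaled by TMM and tested in R 4.3.3 with edgeR 4.0.16, quasi-likelihood F test, group as the only term, all 5 libraries in one fit with 2 residual degrees of freedom, and Benjamini-Hochberg adjustment over all genes tested. With 1 mock library, the spread is estimated within the siRNA pairs. CPM values are TMM-scaled; library ratios used CPM + 0.1. The fit was first checked on simulated data. Alternatives were DESeq2 1.42.0, its size factors, library totals, no filter, the likelihood ratio test, only the libraries compared, the siRNA number as a block, and leaving out each siRNA library.

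The members and the gene lists were chosen with earlier results of these data known. Values in every library are given for members called, the 6 with the smallest p in each comparison, the highest and lowest per kb, and 1 or 2 central genes of each role; EDC3, the other members named for a 7-mer, and CNOT8 and CNOT6L were added after their values were seen. The siRNA numbers name different siRNAs and pair nothing across targets. Every pair of libraries differed by more than counting noise, so none was merged.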

Additional observations from a re-analysis of the deposited data

Results flagged for a closer look

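For 4 of 44 members (9.09%, against 9.51% of all genes tested) both DICER1 siRNA libraries lay on one side of the mock and both DROSHA siRNA libraries on the other. They were CNOT10 (log2 fold change of DICER1 siRNA against DROSHA siRNA 0.104), LSM4 (-0.096), EIF4ENIF1 (0.076) and UPF2 (-0.046). The difference between the knockdowns was tested directly and passed for none of them (adjusted p = 0.758, 0.686, 0.846 and 0.891 in that order, edgeR's quasi-likelihood test). The comparisons with the mock share 1 mock library, so its own error enters both sides.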

How the results depend on the processing

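None of the 44 members passed under any alternative run other than leaving out 1 library. With 1 library left out, members called were 0 to 2 with DROSHA siRNA against mock (CNOT6 without DROSHA siRNA 2, DCP2 and CNOT7 without DROSHA siRNA 1) and 0 to 3 with DICER1 siRNA against DROSHA siRNA (CNOT6 without DROSHA siRNA 2; DCP2, EDC3 and EIF4E2 without DROSHA siRNA 1). Over all genes, calls with DICER1 siRNA against mock (1) became 3 with no filter, 29 with the likelihood ratio test, 5 with DESeq2 and 7 with only the libraries compared. With DROSHA siRNA against mock (1) they became 3 with the likelihood ratio test and 1 to 233 with a library left out, 233 without DROSHA siRNA 1 and 20 without DROSHA siRNA 2. With DICER1 siRNA against DROSHA siRNA (2) they became 12 with no filter, 130 with the likelihood ratio test, 24 with DESeq2 and 1 to 462 with a library left out, 462 without DROSHA siRNA 1 and 33 without DROSHA siRNA 2. The cause was not tested. The members' median log2 fold change with DICER1 siRNA against mock was 0.0336 with library totals, 0.0091 with no filter and -0.00181 to 0.0143 with a library left out. With DROSHA siRNA against mock it was -0.0237 with DESeq2's size factors, -0.024 with DESeq2, -0.0108 with library totals, -0.0314 with no filter and -0.0298 to -0.0268 with a library left out. With DICER1 siRNA against DROSHA siRNA it was 0.0494 with library totals and 0.0172 to 0.0567 with a library left out.

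Signs were followed for the members with the smallest p in each comparison and the central genes of each role, and for CNOT6, DCP2, EIF4E2, GIGYF2, XRN2, CNOT7 and EDC3 in all 3 comparisons. With library totals, CNOT1 (0.00413), UPF1 (0.00665) and DIS3 (0.00321) turned with DROSHA siRNA against mock, as did XRN2, from a value near 0 (0.015 with library totals, 0.0019 with DESeq2 or its size factors, 0.0016 with only the libraries compared). The values with 1 library left out spanned 0 in 3 comparisons. With DICER1 siRNA against mock these were LSM1 (-0.019 to 0.0856), XRN1 (-0.171 to 0.000723) and GIGYF2 (-0.00083 to 0.020). With DROSHA siRNA against mock they were CNOT1 (-0.071 to 0.042), CNOT7 (-0.533 to 0.0481), DDX6 (-0.155 to 0.0772), LSM1 (-0.0638 to 0.0974), XRN1 (-0.0612 to 0.16), UPF1 (-0.0308 to 0.0092), ZFP36L1 (-0.136 to 0.0605), EDC3 (-0.41 to 0.049) and XRN2 (-0.024 to 0.019). With DICER1 siRNA against DROSHA siRNA they were LSM1 (-0.0661 to 0.0983), CNOT7 (-0.273 to 0.306), PAN2 (-0.0554 to 0.0907), DCP2 (-0.0443 to 0.823), DDX6 (-0.0104 to 0.219), CNOT6 (-0.0078 to 1.203), EIF4E2 (-0.0091 to 0.43) and EDC3 (-0.017 to 0.44). With the siRNA number as a replicate block, which the correlation of same-numbered deviations (0.025 over 12234 genes) gives no ground for, 3 genes and no member were called between the knockdowns, XRN2 had an adjusted p of 0.488 (edgeR's quasi-likelihood test) and CNOT7 turned to 0.0113. No paired fit exists for the mock, a single library.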
